A study of Mus musculus with 4 samples.

Results

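C1q-high Trem2-positive macrophages are described here in YUMMER1.7 melanomas of mice given anti–PD-1, anti-MIF or both. Members were chosen by their own RNA counts. A cell barcode was selected on holding at least 5 unique molecular identifiers (UMIs, each a counted RNA molecule) of the myeloid gene Lyz2, at least 20 UMIs of C1qa, C1qb and C1qc together per 10000, at least 1 UMI of Trem2, and none of Cd3d, Cd3e or Cd3g. In the 4 labelled treatment arms, 469 of 5229 kept barcodes were members, 302 in the long and 167 in the short treatment cohort, out of 7503 barcodes in the files. They were 469 of the 2856 barcodes with at least 5 Lyz2 UMIs, and the other 2387 of these (other Lyz2 barcodes) are the main point of reference. A further 15 long and 29 short members with a 5th hashtag, which the labels do not list, entered no test. Because the gate reads the same measurements, levels of its genes are given as a description only.

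Wild-type male C57BL/6J mice, 7 to 8 weeks old, carried subcutaneous tumors of YUMMER1.7, a transplantable mouse melanoma cell line that female mice reject. They received isotype antibody, anti–PD-1, which blocks a checkpoint receptor of T cells, anti-MIF, which neutralizes the cytokine macrophage migration inhibitory factor, or anti–PD-1/anti-MIF. The long cohort was treated for 2 weeks with 4 doses and collected on day 21, and the short cohort for 1 week with 2 doses, on day 14. Tumor cells were sorted on CD45, recombined so that CD45+ cells prevailed, tagged by arm with hashtag antibodies, and run as 1 pooled 10x Genomics 5′ library per cohort.

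Each arm was therefore 1 tagged pool in 1 library, the mice within it could not be told apart, and the cohort is also the library and the collection day. The long library held 23702910 UMIs over 2516 barcodes and the short library 31799441 UMIs over 4987 barcodes, and kept barcodes had a median of 8758 and 5910 UMIs. The 2 libraries shared 20 barcode sequences, none of them a member in both. The tags that assign a barcode to its arm carry these 15-base oligonucleotides, shown because every comparison between arms rests on them.
Isotype: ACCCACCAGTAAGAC
anti–PD-1: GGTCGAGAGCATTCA
anti-MIF: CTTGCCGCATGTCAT
anti–PD-1/anti-MIF: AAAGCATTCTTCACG

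C1qa, C1qb and C1qc encode the chains of C1q, the recognition molecule of the classical complement pathway, which tissue macrophages make locally. Trem2 is a lipid-sensing receptor that signals through the adaptor Tyrobp and the kinase Syk, and in tumors it marks macrophages that take up lipid and dead cells. Macrophages of a growing tumor are replenished largely by Ly6c2-positive blood monocytes, which lose Ly6c2 and Plac8 and gain C1q, Apoe and Adgre1 as they mature.

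The C1q genes lie together on chromosome 4 of the mm10 genome, with C1qb at chr4:136880129-136886187 on the reverse strand, while Trem2 lies at chr17:48346401-48354147, Pf4 at chr5:90772435-90773383 and Ccl12 at chr11:82101845-82103400, all on the forward strand. The 250 bases before the RefSeq start of these 4 genes (GRCm38) are shown because they stand for the gate and for 2 genes that moved with it. Capitals mark AGGAAGT or its reverse complement ACTTCCT, a 7-letter core bound by PU.1 and other ETS factors. This motif was picked after several had been looked at.
C1qb, chr4:136886201-136886450, reverse strand: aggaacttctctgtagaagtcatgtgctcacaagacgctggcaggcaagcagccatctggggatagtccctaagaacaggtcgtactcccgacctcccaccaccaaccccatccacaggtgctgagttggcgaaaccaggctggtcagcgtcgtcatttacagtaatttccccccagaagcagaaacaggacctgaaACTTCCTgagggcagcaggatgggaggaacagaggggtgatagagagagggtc
Trem2, chr17:48346151-48346400, forward strand: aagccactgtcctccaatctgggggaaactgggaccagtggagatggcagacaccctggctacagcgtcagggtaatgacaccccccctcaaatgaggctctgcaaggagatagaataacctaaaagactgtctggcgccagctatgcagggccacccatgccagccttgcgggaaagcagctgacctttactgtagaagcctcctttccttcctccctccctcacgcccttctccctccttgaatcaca
Pf4, chr5:90772185-90772434, forward strand: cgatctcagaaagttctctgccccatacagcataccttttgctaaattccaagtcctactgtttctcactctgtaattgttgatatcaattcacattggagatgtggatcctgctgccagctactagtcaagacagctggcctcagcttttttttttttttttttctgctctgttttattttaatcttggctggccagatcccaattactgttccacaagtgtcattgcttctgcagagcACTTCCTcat
Ccl12, chr11:82101595-82101844, forward strand: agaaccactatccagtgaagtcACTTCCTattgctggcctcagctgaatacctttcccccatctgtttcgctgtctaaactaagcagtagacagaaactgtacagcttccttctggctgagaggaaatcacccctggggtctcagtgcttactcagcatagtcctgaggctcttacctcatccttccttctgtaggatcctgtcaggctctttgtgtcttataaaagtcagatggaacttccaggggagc
The match began 53 bases before the start in C1qb, 10 in Pf4 and 228 in Ccl12. Of 11 genes looked up, 8 had an entry (11 entries), and 5 entries held a match, the other matches lying before C1qc and Mrc1. Of all 32851 promoters of the same 250 bases, 2525 (7.69%) held one. Trem2, Apoe and Ms4a7 had no match, which says only that these letters are not in the window.

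Members carried C1q at a median of 104 UMIs per 10000 (range 20.2 to 342), 131 in the long and 62.7 in the short cohort. Trem2 was sparse, at a median of 3 UMIs per barcode (range 1 to 22), and Lyz2 was at a median of 36 UMIs (range 5 to 484). The lowest member lay at 20.2 C1q UMIs per 10000 and the highest barcode just outside at 19.4. Few barcodes lay near that limit, with 29 members between 20 and 30 and 35 otherwise eligible barcodes between 10 and 20, against 543 below 10. The Trem2 limit was softer, since 105 members (22.4%) had exactly 1 Trem2 UMI, and 217 barcodes met every condition but Trem2. Lyz2 removed 70 barcodes with 1 to 4 UMIs and kept 10 with exactly 5.

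Per arm, Trem2 lay between 202 and 372 CPM (a gene's UMIs per 1000000 UMIs, summed over the members of the arm; median 287), C1qa between 1636 and 5368 (median 2697), C1qb between 3152 and 5669 (median 4107) and C1qc between 1781 and 3671 (median 2174). The gate fixed these levels in part, and C1qa was detected in 456, C1qb in 469 and C1qc in 467 of the 469 members. The other markers given for these cells, Apoe and Ms4a7, were not in the gate. Apoe, a lipid carrier, was detected in 90.4% of members and Ms4a7, a macrophage membrane protein, in 65.0%. Among 595 T-cell barcodes (at least 3 Cd3 UMIs and fewer than 5 of Lyz2), which should lack both genes, the shares were 2.18% and 0.672% at a median of 4590 UMIs, against 12694 in members. Both markers that the gate did not read were thus far above this background.

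Melanoma, hemoglobin and most lymphocyte markers were at or near 0 in members. Of the 6 melanoma genes, Pmel had 1 UMI in all 469 members and Mlana, Tyr, Dct, Sox10 and Tyrp1 had none. The hemoglobin genes, the fibroblast gene Col3a1 and the NK receptor Ncr1 were also at 0. Of 3 plasmacytoid dendritic cell markers Siglech was at 0, but Bst2, which interferon also induces in other cells, had 3704 UMIs and brought the list to 603 CPM against 462 CPM in other Lyz2 barcodes. Of 4 B-cell genes, summing to 19.2 CPM, Cd79b was the most abundant with 98 UMIs, and 21 members (4.48%) held at least 2 UMIs of the list. These values were above those of other Lyz2 barcodes (5.83 CPM, 0.545% with 2 UMIs), and Cd79b was called higher in members (log2 1.26 ± 0.38, edgeR adjusted p = 0.0158). The part of B-cell RNA in the differences below was not tested. The cDC1 list, mostly Wdfy4 with 313 UMIs, was at 54.1 CPM with at least 2 UMIs in 18.3% of members, against 84.4 CPM and 12.1% of other Lyz2 barcodes, and the endothelial list, mostly Pecam1 with 156 UMIs, at 28.7 CPM and 9.59% against 28.0 CPM and 4.11%. Neutrophil genes summed to 31.0 CPM in members, mostly Csf3r with 172 UMIs, against 964 CPM in other Lyz2 barcodes, where S100a8 led with 9047 UMIs. That sum reached 9120 CPM among the other Lyz2 barcodes of the long anti–PD-1/anti-MIF arm, so the reference class there held barcodes with neutrophil RNA.

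In the long cohort, the share of members was higher in both labelled arms that received anti-MIF, while the arm of the 5th hashtag, whose name also holds MIF, stood at 4.62%. They were 6 of 159 kept barcodes with isotype (3.77%, exact 95% interval 1.40% to 8.03%) and 17 of 386 after anti–PD-1 alone (4.40%, 2.59% to 6.96%). The anti-MIF arm held 241 among 895 barcodes (26.9%, 24.0% to 30.0%). The anti–PD-1/anti-MIF arm held 38 among 288 (13.2%, 9.51% to 17.7%). The short cohort did not show this order. There, isotype had the highest share, 63 of 744 (8.47%, 6.57% to 10.7%), ahead of the anti-MIF arm, where 26 of 567 were members (4.59%, 3.02% to 6.65%). The anti–PD-1 arm followed at 65 of 1714 (3.79%, 2.94% to 4.81%), and anti–PD-1/anti-MIF was lowest at 13 of 476 (2.73%, 1.46% to 4.62%). Neighbours in this order have overlapping intervals. These Clopper-Pearson intervals cover counting error only, not the spread between mice.

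**Figure D1:**
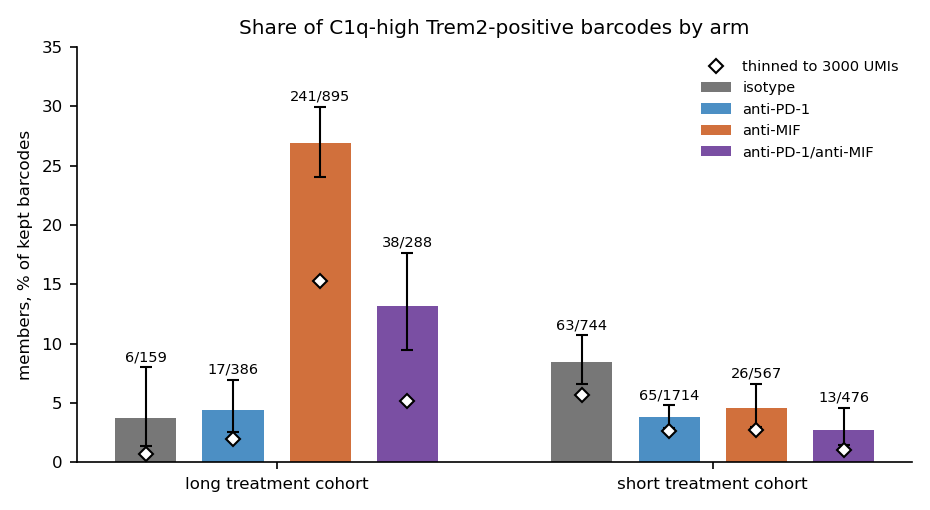
Share of C1q-high Trem2-positive macrophages among kept barcodes (percent, y axis, bars) in each treatment arm of the long and short cohorts (x axis), with exact 95% binomial intervals for counting error, counts above the bars, and diamonds for the share after thinning to 3000 UMIs. The long anti-MIF arm stands at 26.9% and the long isotype arm at 3.77%, while all 4 short arms lie between 2.73% and 8.47%.

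Each arm with anti-MIF was set against its partner without it, as 4 matched pairs. The member share differed by 23.2 and 8.79 percentage points in the long cohort, and by -3.88 and -1.06 in the short cohort, so the pairs split by cohort. The mean difference was 6.75 ± 12.2 percentage points (SD, n = 4 pairs, exact permutation p = 0.5, two-sided, by sign flips over pairs), smaller than the spread between pairs. Arms with anti–PD-1 differed from their partners by 0.631, -13.7, -4.68 and -1.85 points (mean -4.91 ± 6.27, n = 4 pairs, exact permutation p = 0.25). Long arms differed from short arms of the same treatment by -4.69, 0.612, 22.3 and 10.5 points (mean 7.18 ± 11.9, n = 4 pairs, exact permutation p = 0.375). These 3 comparisons use the same 8 arms, and the smallest p that 4 pairs allow is 1 in 8.

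The same split between cohorts appeared against Lyz2 barcodes alone. Members were 12.0%, 13.9%, 48.4% and 27.3% of Lyz2 barcodes in the long arms, ordered as isotype, anti–PD-1, anti-MIF, then both antibodies, and 13.7%, 6.64%, 7.69% and 4.80% in the corresponding short arms. The long anti-MIF arm was also the deepest, with a median of 10548 UMIs per kept barcode against 7771 with long isotype. The part of depth in the shares was not tested beyond thinning. After thinning every barcode to 3000 UMIs, the shares were 0.730%, 2.01%, 15.3% and 5.20% in the long arms and 5.69%, 2.62%, 2.73% and 1.04% in the short arms. The long anti-MIF arm had the highest of these 8 shares, on 121 members gated after thinning, and the share was lower than before thinning in every arm. The mean paired differences were then 3.30 points for anti-MIF, -3.39 for anti–PD-1 and 2.78 for the cohort, which was higher in 2 of 4 pairs. Before thinning, the long anti-MIF arm held 51.4% of all members in the 4 treatment arms.

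Compared with other Lyz2 barcodes of the same arms, C1q-high Trem2-positive macrophages had more RNA of Apoe, of macrophage identity genes and of several chemokines, and less of monocyte genes. The test covered 8487 genes and called 1804 of them (21.3%), with 842 higher (9.92%) and 962 lower (11.3%) in members (edgeR's quasi-likelihood test with the arm as a block, adjusted p under 0.05 and log2 fold change beyond 0.5). The gate genes were not tested. Members were deeper than other Lyz2 barcodes in all 8 arms, with a median of 15111 against 10917 UMIs in the long anti-MIF arm and 8747 against 6358 in the short anti–PD-1/anti-MIF arm. With every barcode thinned to 3000 UMIs and the gate applied again, 593 genes were called, 165 higher and 428 lower, but that fit held 4996 genes and 6 arms, without the long isotype and short anti–PD-1/anti-MIF arms, which kept 1 and 4 members.

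Apoe lay between 1176 and 4713 CPM in the members of the 8 arms (median 2749), and between 351 and 1189 CPM in other Lyz2 barcodes (median 555). The lowest arm of members was therefore only just under the highest arm of the others. Apoe was 4.23-fold higher in members (log2 2.08 ± 0.16 SE, adjusted p = 7.14e-09 by edgeR, higher in 8 of 8 arms). Ms4a7 lay between 114 and 918 CPM in members (median 241) against 20.2 to 146 in others (median 36.3), and was higher by 2.78 ± 0.26 on the log2 scale in 8 of 8 arms. Pf4, a platelet-type chemokine also made by resident macrophages, lay between 13.7 and 354 CPM in members (median 140) against 2.85 to 47.4 in others (median 10.9). Pf4 had the highest fold among the called genes that rose in 8 of 8 arms, at log2 3.52 ± 0.37 (edgeR adjusted p = 5.52e-07). Mrc1, the mannose receptor, lay between 28.9 and 134 CPM in members (median 52.9) against 9.38 to 28.3 in others (median 12.1), with no overlap between the classes, and was higher by log2 2.36 ± 0.23. Over all 8487 genes, 86 had every arm of members above every arm of the others and 146 every arm below, 2.73% in all.

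**Figure D2:**
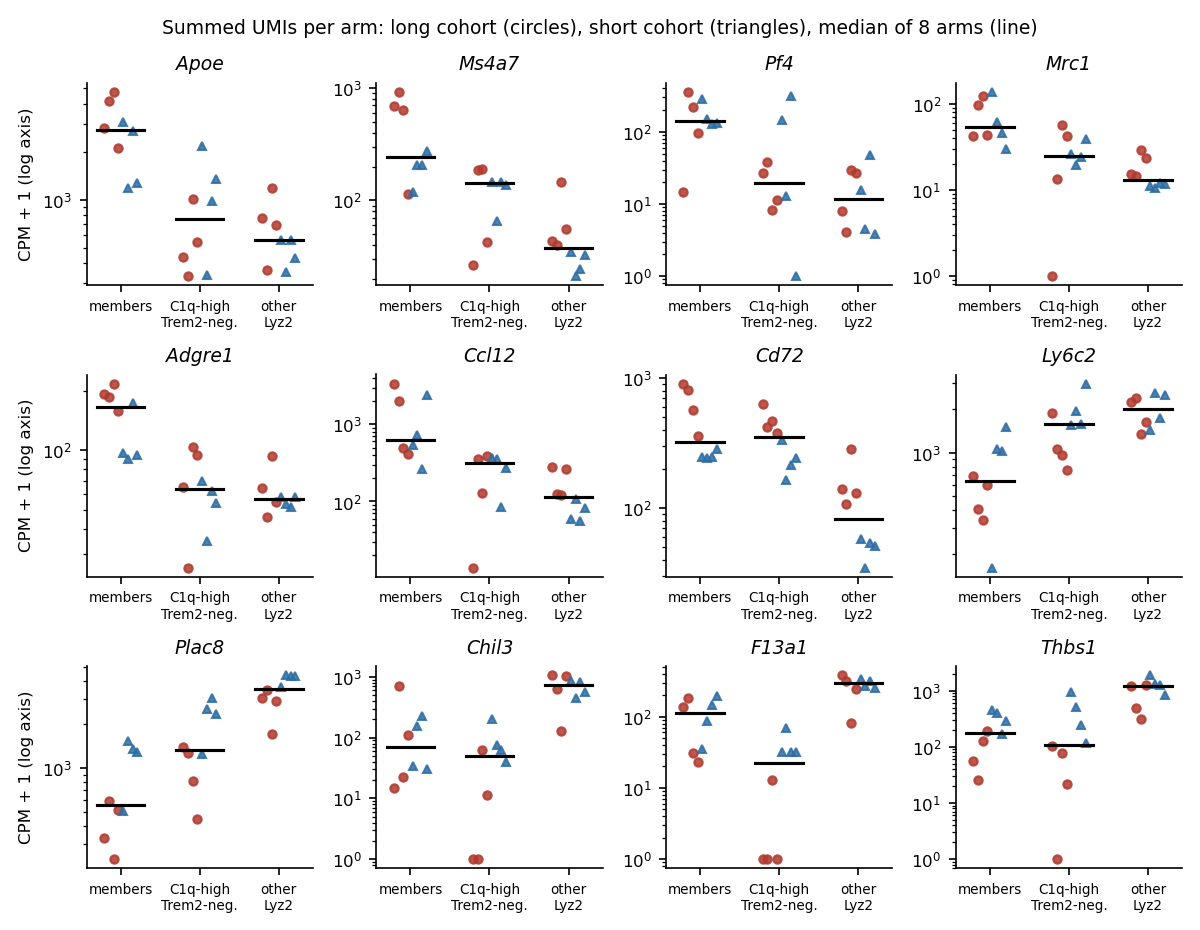
Summed expression (CPM plus 1, log axis) of 12 genes in C1q-high Trem2-positive macrophages, in C1q-high Trem2-negative barcodes and in other Lyz2 barcodes, 1 point for each of the 8 arms (circles long, triangles short), with lines at the medians. Mrc1 lies at 28.9 to 134 CPM in members against 9.38 to 28.3 in the others, whereas Plac8 lies at 234 to 1527 against 1723 to 4373.

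Of 16 macrophage identity genes tested, 10 were called higher and none lower, with a median log2 fold change of 0.70, against 0.00 over all genes. Adgre1, which encodes the macrophage antigen F4/80, lay between 89.4 and 216 CPM in members (median 165) against 45.0 to 92.7 in others (median 55.5) and was higher by log2 1.23 ± 0.14. Cd72, an inhibitory C-type lectin best known on B cells, lay between 243 and 904 CPM (median 319) against 33.8 to 281 (median 81.2) and was higher by log2 2.12 ± 0.18. The tetraspanin Cd81 (log2 2.53 ± 0.20), the calcium-binding Aif1 (log2 0.84 ± 0.09) and the fractalkine receptor Cx3cr1 (log2 0.81 ± 0.18, 7 of 8 arms) were also higher. Olfml3 (log2 2.69), the prostaglandin D synthase Hpgds (2.63), Zmynd15 (2.50), the adhesion molecule Cadm1 (2.39) and Fblim1 (2.37) completed the 10 highest folds among called genes that were higher in 8 of 8 arms, together with Ccl12, Ms4a7, Pf4, Cd81 and Mrc1.

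Monocyte genes fell in members, 16 of 17 tested, with a median log2 fold change of -1.71. Ly6c2, the classical monocyte surface antigen, lay between 160 and 1510 CPM in members (median 641) against 1333 to 2577 in others (median 1992), so that only the highest arm of members reached the range of the others. Its log2 fold change was -1.71 ± 0.19, with reads that a near-identical copy, Ly6c1, may share. Plac8 lay between 234 and 1527 CPM in members (median 551) against 1723 to 4373 in others (median 3538), without overlap, and fell by 2.36 ± 0.15 on the log2 scale (edgeR adjusted p = 9.52e-10, lower in 8 of 8 arms). The proteoglycan Vcan (log2 -3.08 ± 0.29), the chitinase-like Chil3 (-2.47 ± 0.36, lower in 7 of 8 arms) and the clotting factor subunit F13a1 (-1.68 ± 0.23) were lower as well. Ace, known from nonclassical monocytes, fell by 4.01 ± 0.30 on the log2 scale, at a median of 0.546 CPM in members against 113 in others.

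The neutrophil markers were lower in 4 of 4 cases tested. S100a8 lay between 0 and 6.09 CPM in members (median 0.410) against 20.0 to 4740 in others (median 347). S100a9, Pglyrp1, Wfdc21, G0s2, Dmkn, Slpi, Serpinb1a and Serpinb2 were also among the 10 largest decreases. In C1q-high Trem2-negative barcodes the median was 0.736 CPM for S100a8 and 0 for S100a9, Pglyrp1, Wfdc21, G0s2, Dmkn, Serpinb1a and Serpinb2. Their low levels were thus not particular to members. Slpi was at a median of 16.6 CPM in that class, against 4.18 in members. Without the barcodes that held at least 2 UMIs of the neutrophil genes S100a8, S100a9, Retnlg and Cxcr2, an alternative chosen after seeing the data, Apoe and Ms4a7 were higher in members by log2 2.03 and 2.69.

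Genes of dead-cell uptake were higher in part, 5 of 12 tested with 1 lower. Mertk, a receptor for apoptotic cells, was higher by log2 2.21 ± 0.32 in 7 of 8 arms, its relative Axl by 0.98 ± 0.17, the scavenger receptor Stab1 by 0.74 ± 0.16 and the integrin Itgb5 by 0.69 ± 0.11. The lysosome list had 5 of 26 genes higher and 1 lower, close to the share of 21.3% over all genes. Lgmn, an asparaginyl endopeptidase, lay between 725 and 1400 CPM in members (median 986) against 380 to 732 in others (median 463) and was higher by log2 0.99 ± 0.09 in 8 of 8 arms. Ctsl (0.67 ± 0.19), Gusb (0.57 ± 0.14), Grn (0.52 ± 0.10) and Hexa (0.51 ± 0.13) were the other 4.

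Lipid genes went both ways, 5 of 25 higher and 7 lower (median -0.13). Higher were Apoe, the tetraspanin Cd63 (log2 2.06 ± 0.25), the cholesterol hydroxylase Ch25h (2.03 ± 0.24), the acid phosphatase Acp5 (1.28 ± 0.20) and the phospholipid transfer protein Pltp (0.73 ± 0.22). Lower were, among others, the lipid droplet coat Plin2 (-0.84 ± 0.13), the fatty acid binding protein Fabp5 (-1.08 ± 0.16), the scavenger receptor Cd36 (-1.02 ± 0.27) and Gpnmb. Gpnmb, a glycoprotein often listed beside Trem2 in lipid-laden macrophages, lay between 0 and 5.72 CPM in members (median 0) against 5.86 to 51.2 in others (median 24.1), lower in 8 of 8 arms.

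Of the Trem2 signalling list, 1 of 15 tested genes was higher and 4 were lower. Tyrobp, the adaptor of Trem2, lay between 2626 and 2970 CPM in members (median 2765) against 2865 to 3496 in others (median 3283), a log2 difference of -0.26 ± 0.07 (edgeR adjusted p = 0.00847) that stayed inside the fold limit. Syk differed by log2 -0.67 ± 0.12, and the related receptors Trem1 (-0.69), Trem3 (-1.41) and Treml4 (-2.17) were lower, while the higher gene was Ms4a7, a relative of the Trem2 modulator Ms4a4a. Complement genes outside the gate split, with C3ar1 (log2 0.74 ± 0.15), C5ar1 (0.53 ± 0.17) and Cfp (0.57 ± 0.12) higher and 2 lower among 10 tested, including the central component C3 (-1.03 ± 0.17). Of 5 tested genes of the Fc gamma receptor list, Fcgr4 (log2 0.74 ± 0.13) and the inhibitory Fcgr2b (0.60 ± 0.10) were higher and none lower.

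**Figure D3:**
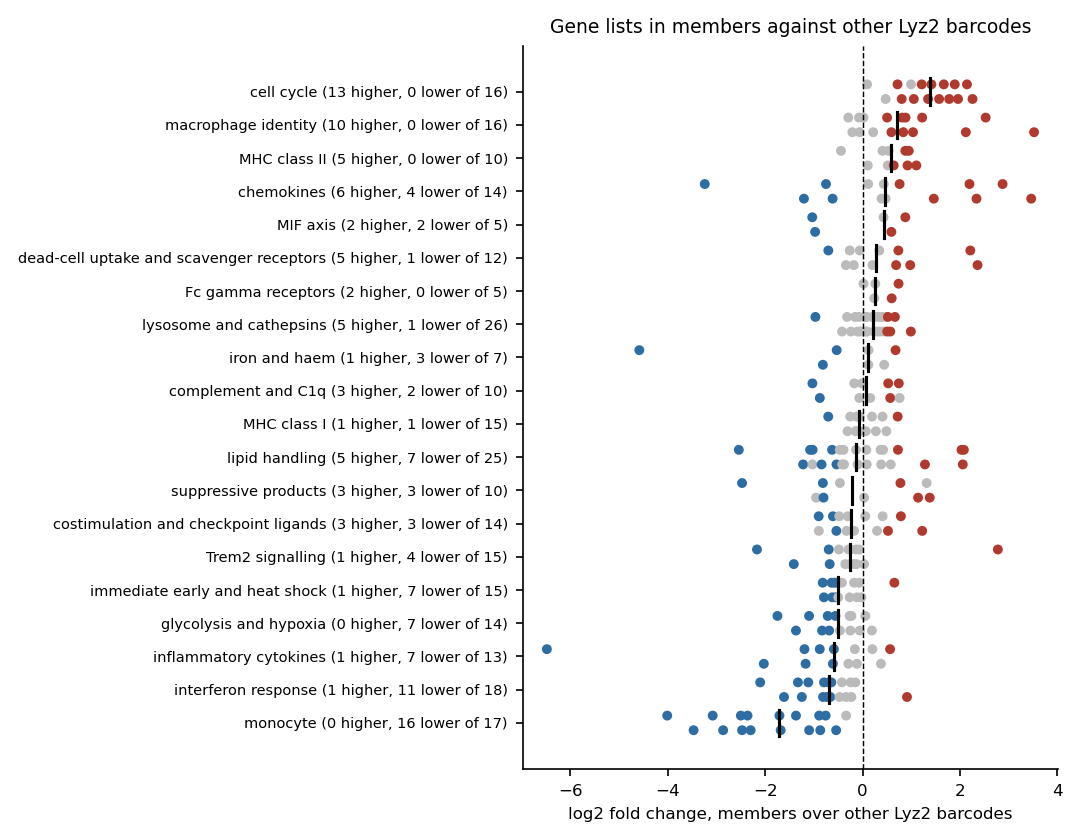
Log2 fold change of each tested gene (x axis, points) between C1q-high Trem2-positive macrophages and other Lyz2 barcodes, by gene list (y axis). Red and blue points were called higher and lower by edgeR, gray points were not called, solid bars are list medians and the dashed line is the median of all genes. Monocyte genes are lower in 16 of 17 cases, and cell cycle genes higher in 13 of 16.

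Antigen presentation genes of MHC class II were higher in 5 of 10 tested cases and lower in none (median log2 0.59). H2-Eb1 lay between 2839 and 5061 CPM in members (median 4789) against 946 to 4626 in others (median 1817) and was higher by log2 1.11 ± 0.16. Cd74, the invariant chain and also the receptor of MIF, lay between 9715 and 16886 CPM in members (median 15834) against 4484 to 17094 in others (median 7588), with overlapping ranges, and was higher by 0.88 ± 0.12 in 7 of 8 arms. H2-Ab1 (0.95 ± 0.16, 6 of 8 arms), H2-Aa (0.92 ± 0.15, 8 of 8) and H2-DMb1 (0.64 ± 0.15, 6 of 8) were the others. MHC class I had 1 of 15 genes higher, H2-Q6 (log2 0.72), whose reads close copies may share, and 1 lower, the regulator Nlrc5 (-0.70). In the MIF axis, 2 of 5 genes were higher, Cd74 and Mif, and 2 lower. Mif itself lay between 616 and 1382 CPM in members (median 1019) against 570 to 827 in others (median 625) and was higher by log2 0.59 ± 0.14 in 7 of 8 arms, whereas the co-receptors Cd44 (-1.03 ± 0.12) and Cxcr4 (-0.97 ± 0.12) were lower in 8 of 8.

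Chemokine genes were higher in 6 of 14 cases and lower in 4. Ccl12, a monocyte attractant, lay between 267 and 3369 CPM in members (median 630) against 55.6 to 283 in others (median 113) and was higher by log2 2.88 ± 0.30, although 1 barcode carried 87.8% of its UMIs in the long isotype arm and 92.7% in the short anti–PD-1/anti-MIF arm. Ccl7, which acts through the same receptors, was higher by log2 2.20 ± 0.27, Cxcl16, a membrane-bound chemokine, by 1.46 ± 0.15, and Cxcl14 by 2.34 ± 0.38 in 6 of 8 arms. Ccl8 was higher by log2 3.46 ± 0.62 in the fit but in only 4 of 8 arms. Cxcl9 was called higher (log2 0.76 ± 0.21, 5 of 8 arms) while the other interferon-induced chemokine Cxcl10 was lower (-1.20 ± 0.36), and the Cxcl9 difference turned to log2 -0.17 in thinned barcodes.

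Interferon response genes were lower in 11 of 18 cases and higher in 1 (median log2 -0.68), among them the antiviral Rsad2 (-2.10 ± 0.25), Ifit1 (-1.61 ± 0.29) and Isg15 (-0.81 ± 0.15), with the GTPase Iigp1 higher by 0.91 ± 0.20. Inflammatory cytokine genes were lower in 7 of 13 cases and higher in 1, with Il1a (log2 -1.17 ± 0.39) and Il18 (-1.19 ± 0.19) lower. The gene that was higher, Il18bp, encodes an inhibitor of IL-18 (log2 0.57). Glycolysis and hypoxia genes were lower in 7 of 14 cases and higher in none, including Egln3 (-1.75 ± 0.22) and Ero1l (-1.37 ± 0.20). Immediate early and heat shock genes were lower in 7 of 15 cases and higher in 1, and iron genes lower in 3 of 7 and higher in 1. The costimulation list had 3 of 14 genes higher, Tnfsf9 (log2 1.23 ± 0.17), Siglece and Icosl, and 3 lower. The list of suppressive products had 3 of 10 higher, the matrix metalloproteinase genes Mmp13 (log2 1.38), Mmp12 (1.14) and Mmp14 (0.78), and 3 lower, Tgfb1 (-0.80 ± 0.09), the heme oxygenase Hmox1 (-0.81) and Chil3.

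Cell cycle genes were higher in 13 of 16 cases and lower in none (median log2 1.38). The tubulin regulator Stmn1 was higher by log2 2.15 ± 0.26 and the mitotic cyclin Ccnb2 by 2.26 ± 0.34, each in 7 of 8 arms, and the helicase subunit Mcm2 by 1.96 ± 0.44. The proliferation antigen Mki67 was higher by only 1.05 ± 0.37 and in 4 of 8 arms (edgeR adjusted p = 0.0389). The count was 11 of 16 within the long cohort, 5 of 13 within the short cohort, 7 of 14 without the long anti-MIF arm and 6 of 10 in thinned barcodes. At 3000 UMIs, Mki67 was detected in 10.4% and 13.9% of members in the long arms with anti-MIF alone and combined. The other long arms had it in none of 6 and 16 members, too few to set a low rate apart from 0. In the short arms it was in at most 1.67%. By cohort, 10.1% of long and 1.23% of short members held it, against 2.45% and 1.54% of other Lyz2 barcodes. C1q-high Trem2-negative barcodes were at 3.90% and 3.36%, so Mki67 detection was not higher in members of the short cohort.

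The nearest class was the 217 barcodes that met the same C1q limit but had no Trem2 UMI. They carried less C1q than members (C1qb 3216 against 4671 CPM, for example) and their depth was lower (median 8114 against 12694 UMIs), so that a missed Trem2 transcript and an absent one cannot be told apart. Against this class, the same edgeR test called 25 genes out of 3829 (0.653%), of which 17 (0.444%) had more and 8 (0.209%) less RNA in the Trem2-positive members, and 463 had an unadjusted p under 0.05. Apoe lay between 331 and 2163 CPM in the Trem2-negative class (median 758) and was higher in members by log2 1.71 ± 0.26 (edgeR adjusted p = 0.00416, 7 of 8 arms). Adgre1 lay between 24.5 and 103 CPM there (median 62.7) and was higher in members by log2 1.20 ± 0.19 in 8 of 8 arms.

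By list, 2 of 16 macrophage identity genes were higher and none lower, and of 15 monocyte genes 2 were lower and 1 higher. Ms4a7 (log2 1.52 ± 0.27), Mrc1 (1.37 ± 0.25), Ccl12 (1.90 ± 0.37), Ccl7 (1.87 ± 0.42), the selenium carrier Selenop (1.22 ± 0.24), Ctsl (0.88 ± 0.19), Spp1 encoding osteopontin (1.44 ± 0.33), Rgs1 (0.76 ± 0.14), Selenoh (0.98 ± 0.22) and Tmem119 (1.00 ± 0.21) were higher. Lower were Ly6c2 (log2 -1.25 ± 0.21), Plac8 (-1.08 ± 0.16), the urea cycle enzyme Ass1 (-0.91 ± 0.17), the copper chaperone Atox1 (-0.54 ± 0.12) and the interferon-induced Ifi27l2a (-0.50 ± 0.10). F13a1 was higher in members than in this class by log2 1.48 ± 0.34 in 8 of 8 arms, although lower than in other Lyz2 barcodes. MHC class II genes were fitted lower in 8 of 8 tested cases, and none was called. These calls were fragile, with 7 genes called without the long anti-MIF arm and 0 without the arm block (195 with an unadjusted p under 0.05). In thinned barcodes 7 genes were called (6 arms, 1526 genes tested), of which Apoe, Plac8, Ly6c2 and Ass1 were among those just named. There the gate was applied again, so a member left without a Trem2 UMI could enter the Trem2-negative class. After thinning, 226 barcodes were members and 272 Trem2-negative over the 8 arms. The part of this shift in the count of calls was not tested.

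Members differed among themselves. After thinning to 3000 UMIs (461 members, gated at full depth), Apoe was detected in 85.5% of members and H2-Ab1 in 89.6%, but Ms4a7 in 46.0%, Pf4 in 24.5%, Mrc1 in 19.7% and Mertk in 10.4%. The corresponding shares in other Lyz2 barcodes were 41.7%, 52.9%, 5.49%, 1.88%, 2.05% and 1.38%. In the C1q-high Trem2-negative class they were 53.1%, 92.9%, 13.8%, 5.10%, 8.16% and 6.12%, so H2-Ab1 was not particular to members. Monocyte genes were still present in a part of the members, with Plac8 in 39.7% and Ly6c2 in 31.9%, against 92.5% and 78.7% in other Lyz2 barcodes. The monocyte chemokine receptor Ccr2 was at 53.1% against 59.8% over all arms, but the order varied by arm. In the long arms (isotype, anti–PD-1, anti-MIF, both) it was at 16.7%, 43.8%, 49.2% and 69.4% against 60.5%, 64.0%, 58.0% and 61.5%. In the short arms it was at 46.7%, 64.1%, 61.5% and 69.2% against 58.6%, 57.1%, 67.4% and 61.8%. Cd163, Lyve1 and Timd4, genes of resident macrophages in many tissues, were detected in none of the thinned members. They were also rare in other Lyz2 barcodes, at 0.179%, 0.0446% and 0.0446%, so their absence did not set members apart. Folr2, another such gene, was detected in 1.30% of members against 0.134% of other Lyz2 barcodes.

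Within the thinned members, Ly6c2 was detected in 7.69% of the 91 barcodes with Mrc1 and in 37.8% of those without, and Pf4 in 51.6% and 17.8%. Ccr2 was detected in 50.5% of barcodes with Mrc1 and in 53.8% of those without. These co-detection shares are over cells of shared libraries and are given as a description. Arms of 1 cohort also varied among themselves. Ms4a7 was detected in 66.7%, 62.5%, 59.6% and 16.7% of thinned members in the long arms, in the order isotype, anti–PD-1, anti-MIF, both antibodies, and in 21.7%, 29.7%, 50.0% and 30.8% in the short arms. The long arms had Ly6c2 in 66.7%, 43.8%, 19.2% and 27.8% of members, the short arms in 18.3%, 67.2%, 57.7% and 84.6%. For both genes the cohorts overlapped.

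No gene passed the test for anti-MIF within C1q-high Trem2-positive macrophages across both cohorts. Of 5727 genes tested on UMIs summed per arm, 0 were called (0%; edgeR, adjusted p under 0.05), 200 had an unadjusted p under 0.05, and DESeq2 called 0 (100 with an unadjusted p under 0.05). Tnip3, an inhibitor of NF-kB signalling, had the lowest p of the genes that were lower, at 110, 59.9, 91.5 and 78.2 CPM in the long isotype, long anti–PD-1, short isotype and short anti–PD-1 arms against 51.9, 22.3, 18.8 and 21.7 CPM in their anti-MIF partners. It was lower in each of the 4 pairs (log2 -1.55 ± 0.33, edgeR adjusted p = 1.00). The heparanase gene Hpse, with the lowest p among the higher genes, had a log2 difference of 1.76 ± 0.44 (edgeR adjusted p = 1.00, higher in 4 of 4 pairs). Of the lists, chemokines were fitted lower in 11 of 12 genes (median log2 -0.35) and glycolysis and hypoxia genes in 12 of 13 (-0.32), with none called in either.

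The same held for anti–PD-1, where 0 of 5727 genes were called (0%; edgeR, 219 with an unadjusted p under 0.05; DESeq2 called 0, with 96). The collagenase Mmp13, with the lowest p among the higher genes, had a log2 difference of 1.96 ± 0.41 in 4 of 4 pairs (edgeR adjusted p = 1.00). Spp1 lay at 1712, 399, 645 and 691 CPM in the long isotype, long anti-MIF, short isotype and short anti-MIF arms and at 623, 386, 247 and 101 CPM in their anti–PD-1 partners. It was thus lower in 4 of 4 pairs (log2 -1.35 ± 0.33, edgeR adjusted p = 1.00). All 18 interferon response genes were fitted higher with anti–PD-1 (median log2 0.45, against 0.00 over all genes), among them Rsad2 by 1.63 ± 0.36, and none was called. Other lists moved alike, with 12 of 15 monocyte genes (median 0.44), 14 of 15 MHC class I genes (0.20) and 8 of 9 genes of suppressive products (0.55) fitted higher, and none called. The anti-MIF and anti–PD-1 comparisons draw on the same 8 arms.

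Whether the anti-MIF difference itself differed between cohorts was tested as an interaction. It was called for 3 of 5727 genes (0.0524%; edgeR, 292 with an unadjusted p under 0.05), all more negative in the long cohort. F13a1 lay at 137 and 185 CPM in the long isotype and anti–PD-1 arms, against 30.0 and 22.3 in the long arms with anti-MIF alone and combined. In the short cohort it lay at 34.3 and 86.2 without and at 146 and 195 with anti-MIF, the opposite order, and the interaction was log2 -3.92 ± 0.55 (edgeR adjusted p = 0.0263). Ccl2, the main ligand of Ccr2, lay at 1794 and 1511 CPM without and 474 and 565 with anti-MIF in the long cohort, and at 299 and 267 without and 492 and 1062 with it in the short cohort (interaction log2 -2.99 ± 0.47, edgeR adjusted p = 0.0263). Ccl7 lay at 1506 and 1840 against 372 and 329 CPM in the long cohort and at 223 and 153 against 263 and 340 in the short cohort (log2 -2.84 ± 0.44, edgeR adjusted p = 0.0263).

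**Figure D4:**
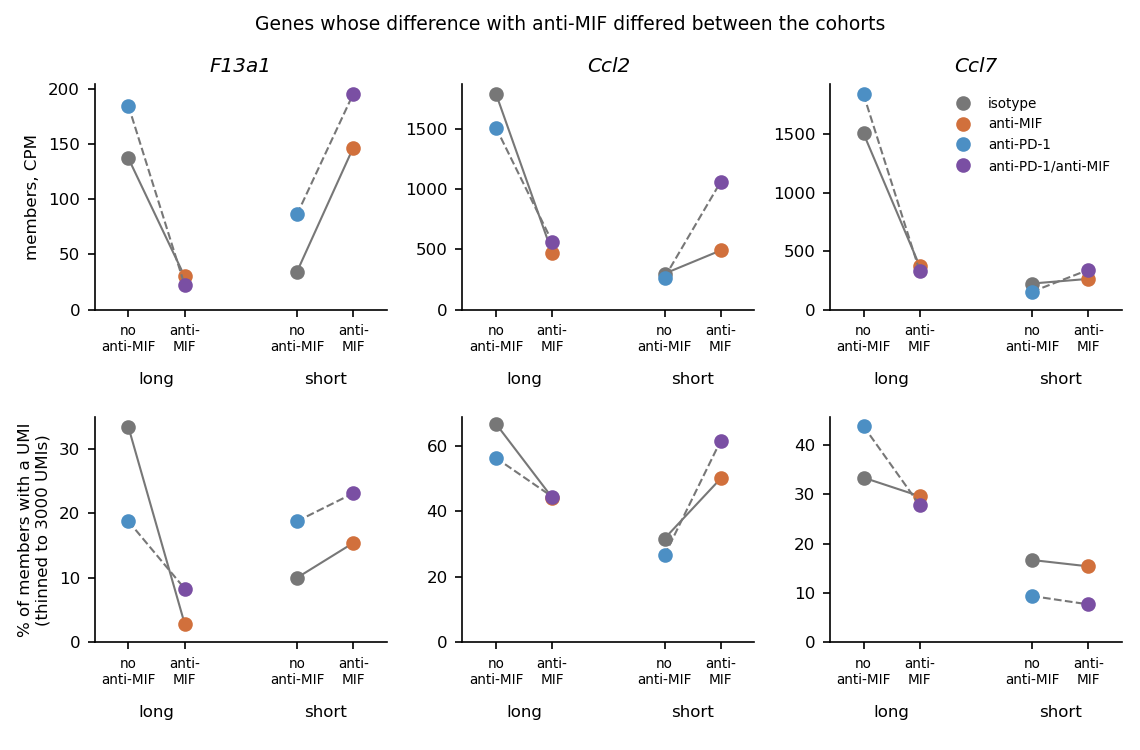
Summed expression (CPM, upper row) and share of thinned members with a UMI (percent, lower row) of F13a1, Ccl2 and Ccl7, 1 point per arm without replicate error, with lines joining each arm to its anti-MIF partner (solid without and dashed with anti–PD-1). Ccl2 lies at 1794 and 1511 CPM without and 474 and 565 CPM with anti-MIF in the long cohort, and at 299 and 267 against 492 and 1062 in the short cohort.

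These sums rest on few barcodes. In the long isotype arm 1 of 6 members carried 77.1% of the Ccl2 UMIs, in the short anti–PD-1/anti-MIF arm 1 of 13 carried 83.7% of the Ccl2 and 95.7% of the Ccl7 UMIs, and in the long anti–PD-1 arm 1 of 17 carried 73.0% of the F13a1 UMIs. As shares of thinned members with a UMI, Ccl2 was at 66.7% and 56.3% without and 44.2% and 44.4% with anti-MIF in the long cohort, and at 31.7% and 26.6% without and 50.0% and 61.5% with it in the short cohort. The shares of Ccl7 did not reverse, at 16.7% and 9.38% without and 15.4% and 7.69% with anti-MIF in the short cohort. No gene was called without the long anti–PD-1 arm, and 28 without the long anti-MIF arm. All 11 tested cell cycle genes had a positive interaction (median log2 2.73) and none was called.

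Members of the long cohort differed from those of the short cohort in 9 of 5727 genes (0.157%; edgeR, adjusted for both antibodies, 712 with an unadjusted p under 0.05), 5 higher and 4 lower. Cd72 lay at 904, 808, 564 and 355 CPM in the long arms, ordered as isotype, anti–PD-1, anti-MIF, then both antibodies, and at 246, 243, 244 and 282 CPM in the short arms, without overlap (log2 1.33 ± 0.24, edgeR adjusted p = 0.0453). The linker histone gene Hist1h1e lay at 219, 110, 187 and 183 CPM in the same order in the long and at 38.6, 38.3, 26.3 and 21.7 CPM in the short arms (log2 2.36 ± 0.30, edgeR adjusted p = 0.00679). The immunoglobulin gene Ighm (log2 1.82 ± 0.33), the receptor gene Cd300ld3 (3.18 ± 0.56) and Eno1b (1.84 ± 0.27), whose reads Eno1 may share, were the other higher genes. The summed B-cell markers did not separate the cohorts, at 41.1, 4.99, 20.8 and 8.13 CPM in the long and 11.4, 35.1, 7.51 and 14.5 CPM in the short arms, and their part in Ighm was not tested.

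Plac8 lay at 329, 589, 234 and 514 CPM in the long and at 505, 1527, 1344 and 1294 CPM in the short arms, so that the short isotype arm overlapped the long arms, and was lower in the long cohort by 1.53 ± 0.27 on the log2 scale. Vcan was lower by 4.30 ± 0.75, with 0, 4.99, 1.64 and 8.13 CPM in the long and 10.0, 41.5, 97.6 and 28.9 CPM in the short arms. The transcription factor gene Tcf7l2 (log2 -1.45 ± 0.26) and Lrmda (-1.21 ± 0.21) completed the lower genes. Monocyte genes were fitted lower in the long cohort in 13 of 15 cases (median log2 -0.74, 2 called) and cell cycle genes higher in 11 of 11 (0.92, none called). DESeq2 called 31 genes, 0 were called without the short anti-MIF arm, and the library, day and treatment length cannot be told apart.

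**Figure D5:**
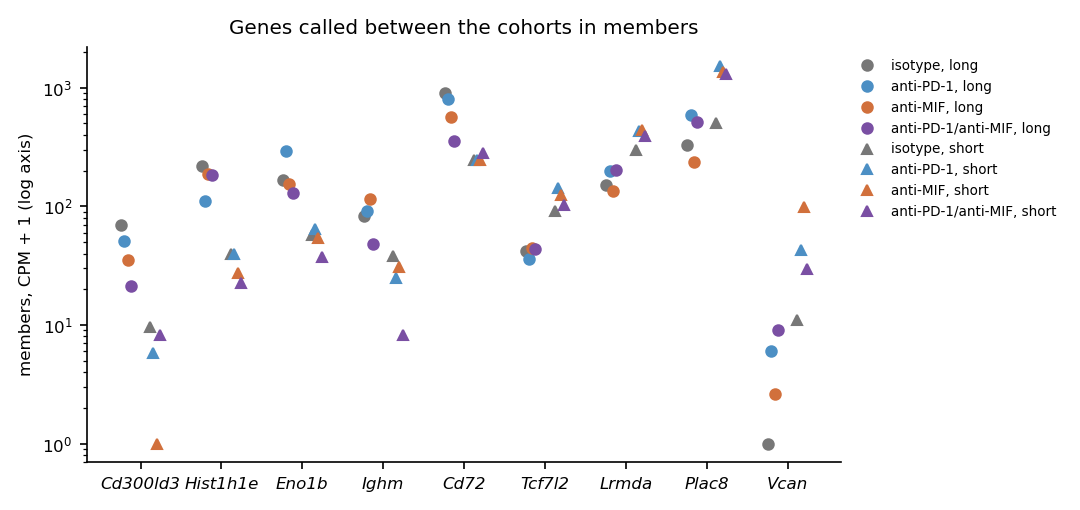
Summed expression (CPM plus 1, log axis) of the 9 genes that differed between cohorts in C1q-high Trem2-positive macrophages, 1 point for each of the 4 long (circles) and 4 short (triangles) arms. Cd72 lies at 355 to 904 CPM in the long and 243 to 282 CPM in the short arms, and Plac8 at 234 to 589 against 505 to 1527.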

How the data were processed

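The data were single-cell UMI counts of 5′ libraries from 2 cohorts. Per the submitters' processing notes, the tools were Cell Ranger 7.1.0, Seurat 5.1.0, R 4.3.2 and DESeq2 with the mm10 build. The deposited matrices hold raw counts per gene and barcode for 32285 genes, together with hashtag counts that the authors used to tell arms apart. Barcodes were kept with 200 to 5000 genes, at most 5% mitochondrial UMIs and a top hashtag at least 3 times the second; this ratio was the only step against doublets. A 5th hashtag, which the labels do not list, was left out of all tests. Counts were summed per arm and class and fitted with edgeR 4.0.16 (R 4.3.3; TMM, filterByExpr, Benjamini-Hochberg adjustment), with DESeq2 1.42.0 as an alternative, after tests on simulated data. The SE given with an edgeR log2 fold change was derived from that fold change and the F statistic of its test, not estimated separately. Shares were compared by exact sign-flip permutation (Python 3.11.15). Thinning drew 3000 UMIs per barcode and left out shallower ones. Members and gene lists were chosen with earlier results of these data known. Genes outside the lists were named when among the 10 largest folds per direction of one sign in every arm or pair, or, where none passed, the 5 lowest p. Gene positions are from the GENCODE annotation of GRCm38. All p-values measure the spread between arms, which may be technical. Alternatives covered the filters, the gate limits, scaling, the block and each arm left out. Some genes are not reported here.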

Additional observations from a re-analysis of the deposited data

Results flagged for a closer look

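The share of C1q-high Trem2-positive macrophages moved in opposite directions with anti-MIF in the 2 cohorts. The long anti-MIF arm exceeded its isotype arm by 23.2 percentage points, and adding anti-MIF to anti–PD-1 went with a share 8.79 points above that of anti–PD-1. The matching short-cohort differences were -3.88 and -1.06 points. The difference between cohorts was not tested.

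Within the members, the anti-MIF difference depended on the cohort for F13a1 (interaction log2 -3.92), Ccl2 (-2.99) and Ccl7 (-2.84), by edgeR's interaction test with an adjusted p of 0.0263 each. The part of the single barcodes that carried most UMIs of these genes in some arms was not tested.

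The arm of the 5th hashtag, named for anti–PD-1, anti-MIF and DDT in the files, also held members. They were 15 of 325 kept barcodes in the long cohort (4.62%, exact 95% interval 2.61% to 7.50%), beside 3.77% (1.40% to 8.03%) with isotype and 13.2% (9.51% to 17.7%) with anti–PD-1/anti-MIF. The intervals cover counting error only, and these arms were not tested against each other.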

How the results depend on the processing

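No mean share difference changed sign under another hashtag ratio, mitochondrial or gene limit, gate limit, denominator or equal depth, but the means moved: at equal depth to 3.30 points for anti-MIF and 2.78 for the cohort, and among Lyz2 barcodes to 10.5 and 17.2, with -7.28 for anti–PD-1. Single pairs near 0 did, the long anti–PD-1 minus isotype difference going to -2.51 points at a hashtag ratio of 5 and the anti–PD-1 difference between cohorts to -0.914 without the Trem2 condition. Leaving out one arm pair at a time gave mean share differences from 1.28 to 10.3 points for anti-MIF, -6.75 to -1.97 for anti–PD-1 and 2.13 to 11.1 for the cohort. Of 98 genes tabulated for the comparison with other Lyz2 barcodes, 60 kept their result, called or not, in every setting that tested them, and 97 their sign. Not every setting tested all of them: 87 were tested when thinned and 81 without the arm block. Cxcl9 reversed, to log2 -0.17 in barcodes gated again after thinning (edgeR adjusted p = 0.70) and -0.16 with a limit of 2 Trem2 UMIs (edgeR adjusted p = 0.687). That comparison called 593 genes when thinned and 875 within the long cohort, an alternative added after seeing the data like the within-short fits, the fit without neutrophil-marker barcodes and the alternatives of the interaction, and 1502 to 1842 with one arm left out. Against Trem2-negative barcodes, 95 genes were called without a filter on low counts, 7 when thinned and gated again, and 0 without the arm block. The count was 15 within the long and 2 within the short cohort, and 7 to 27 with one arm left out. For anti-MIF, 7 genes were called without the filter and 0 to 1 with one arm left out. For anti–PD-1, the counts were 22 without the filter, 1 when thinned, 1 with arms of at least 15 members and 0 to 3 with one arm left out. Long against short members gave 31 genes with DESeq2, 122 without the filter, 2 when thinned, 4 with a hashtag ratio of 5, and 0 to 20 with one arm left out. The interaction gave 6 genes with DESeq2 and 0 to 28 with one arm left out. The causes were not tested. With 6 members in the long isotype arm and 13 in the short anti–PD-1/anti-MIF arm, the values of those arms rest on few members.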

Other observations

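In the arm of the 5th hashtag, members were 29 of 1071 kept barcodes in the short cohort (2.71%, exact 95% interval 1.82% to 3.87%). Summed over these members, Apoe was at 1249 CPM in the long and 1035 CPM in the short cohort, and Ms4a7, the other macrophage marker outside the gate, at 212 and 107 CPM. Ccl2 was at 991 and 284 CPM and Ccl7 at 119 and 192 CPM. Plac8 was at 1879 and 1253 CPM, so that it was higher in the long cohort, opposite to the labelled arms, while Cd72 was at 398 and 192 CPM, in the same order as there. F13a1 was at 222 and 123 CPM.

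Among thinned members, gated at full depth, the osteopontin gene Spp1 was detected in 31.2% against 15.6% of other Lyz2 barcodes. The cytokine gene Il1b was at 69.2% against 78.6% over all arms, but the order varied by arm. In the long arms (isotype, anti–PD-1, anti-MIF, both) it was at 83.3%, 68.8%, 62.5% and 77.8% against 55.8%, 67.0%, 91.6% and 70.8%. In the short arms it was at 76.7%, 81.3%, 57.7% and 92.3% against 77.8%, 86.0%, 66.3% and 66.7%. Cxcl9 was detected in 28.4% of members and Cxcl10 in 16.7%, against 21.1% and 30.6% of the others. In the C1q-high Trem2-negative class these shares were 45.9% and 24.0%. The Cxcl9 fit in barcodes gated again after thinning had the opposite sign. Chil3, a secreted lectin of monocytes and alternatively activated macrophages, was detected in 6.94% of members and 42.2% of other Lyz2 barcodes. It was at 9.18% in the C1q-high Trem2-negative class, so its low share was not particular to members.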
